A study of Mus musculus with 19 samples.

Results

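The genes described here encode alarmins and antimicrobial proteins of the skin: S100a8, S100a9, Lcn2, Saa1, Saa3, Defb3, Defb4, Camp, Pglyrp1 and Slpi. They were taken by name, with earlier results of these data known, and are 10 of the 18521 genes in the count table. All 10 were among the 15760 genes that passed the filter on low counts, which asked for about 0.303 CPM (counts of the gene relative to the library total, scaled to 1e6) in at least 3 mice. Saa1 reached that level in 4 vismodegib mice and in 2 mice of the other groups, so it was tested because of its level after vismodegib. Each of the other 9 genes also reached it in 3 or more mice outside the vismodegib group.

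Each library held RNA of a 1 cm2 skin sample; 16 female mice gave 19 libraries, and all carried Ptch1+/- K14-CreER2 p53fl/fl. This is a model of basal cell carcinoma (BCC) in which 1 allele of the Hedgehog receptor Ptch1 is lost and a tamoxifen-activated Cre, driven by the keratin 14 promoter, deletes Trp53 in keratinocytes. AFL denotes ablative fractional laser, which drills a grid of microscopic channels into the skin, and vismodegib is a topical inhibitor of the Hedgehog transducer Smoothened. Library totals lay between 27185912 and 33556614 counts.

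The AFL group had 3 mice (4 libraries), aged 228 to 326 days and 80 to 126 days after induction, with tumours induced and then 1 laser treatment at 5% density and 40 mJ per microbeam. The vismodegib group had 4 mice (5 libraries), aged 268 to 326 days and 109 to 137 days after induction, with 8 applications of the drug. The BCC group had 4 induced, untreated mice aged 278 to 320 days, 130 to 144 days after induction. All 3 of these groups had received 3 tamoxifen injections of 300 µg and an x-ray dose of 4 Gy. The healthy group had 5 mice (6 libraries) aged 128 to 137 days that were never induced. Skin was taken on day 4. Days since induction did not overlap between AFL and BCC mice, so laser and time since induction cannot be told apart there. No mouse given a vehicle or a sham treatment is among the samples used here, so drug, vehicle and the handling of the skin cannot be told apart, and in every comparison with healthy skin age, irradiation and tamoxifen cannot be told apart from the tumours.

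Trp53, the floxed gene, lay between 31.5 and 44.9 CPM in AFL skin, 25.3 and 55.1 in vismodegib skin, 23.6 and 36.3 in BCC skin and 94.0 and 143 in healthy skin. No induced mouse reached the level of a healthy one. Keratin 14 (Krt14), the keratinocyte marker, was present at 2580 CPM or more in every mouse. In whole skin, more cells that express a gene and more RNA per cell cannot be told apart, which holds for every result given here.

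S100A8 and S100A9 pair to form calprotectin, a calcium-binding alarmin that withholds zinc and manganese from microbes and signals through pattern-recognition receptors. Neutrophils store it in large amounts, and keratinocytes make it in wounds and in inflamed skin. Lipocalin 2 (Lcn2) captures bacterial iron carriers, serum amyloid A proteins (Saa1, Saa3) are acute phase proteins that bind lipids, and the defensins and cathelicidin damage microbial membranes. In keratinocytes, IL-17 and IL-22 from lymphocytes and members of the IL-1 and IL-36 families are known inducers of these genes, acting in part through NF-kB, its partner IκBζ (Nfkbiz), STAT3 and C/EBP factors.

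The sequence before the start site is given for the 6 genes with the largest fold changes in vismodegib against BCC skin, because C/EBP-type sequences are a known element of acute phase and antimicrobial promoters. RefSeq promoter sequence of build GRCm38.p6 was available for 9 of the 10 genes, Defb4 being the one without an entry; the counts themselves were made on GRCm39. Each line holds the 250 bases before the annotated start, 5′ to 3′ on the gene's strand. S100a8 and S100a9 are neighbours on chromosome 3 and are read from opposite strands. Capitals mark TTGCNNAA on either strand (the C/EBP-type sequence) and, in S100a8, TATAAA on the gene's strand. The regions are chr3:90668821-90669070 (plus strand) for S100a8, chr3:90695722-90695971 (minus) for S100a9, chr2:32387740-32387989 (minus) for Lcn2, chr7:46742981-46743230 (minus) for Saa1, chr7:46715677-46715926 (minus) for Saa3 and chr8:19293111-19293360 (plus) for Defb3.
S100a8: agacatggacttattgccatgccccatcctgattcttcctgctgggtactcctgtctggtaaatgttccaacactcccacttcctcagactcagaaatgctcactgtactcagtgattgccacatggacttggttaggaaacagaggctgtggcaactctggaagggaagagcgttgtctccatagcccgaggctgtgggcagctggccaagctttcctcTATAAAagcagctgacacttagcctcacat
S100a9: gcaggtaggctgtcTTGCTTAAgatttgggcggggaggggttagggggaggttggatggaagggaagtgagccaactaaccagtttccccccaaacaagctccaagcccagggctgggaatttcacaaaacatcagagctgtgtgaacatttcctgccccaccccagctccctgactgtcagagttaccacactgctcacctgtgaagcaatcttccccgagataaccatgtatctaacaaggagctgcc
Lcn2: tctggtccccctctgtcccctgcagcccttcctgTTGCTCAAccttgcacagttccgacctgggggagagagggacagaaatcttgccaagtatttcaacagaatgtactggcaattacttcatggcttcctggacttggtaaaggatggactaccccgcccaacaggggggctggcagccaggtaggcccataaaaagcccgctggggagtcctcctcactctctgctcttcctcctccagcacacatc
Saa1: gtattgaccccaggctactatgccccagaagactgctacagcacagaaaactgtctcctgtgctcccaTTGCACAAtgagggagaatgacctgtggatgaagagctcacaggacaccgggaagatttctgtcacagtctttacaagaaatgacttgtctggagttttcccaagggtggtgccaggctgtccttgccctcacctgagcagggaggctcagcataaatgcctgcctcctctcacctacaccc
Saa3: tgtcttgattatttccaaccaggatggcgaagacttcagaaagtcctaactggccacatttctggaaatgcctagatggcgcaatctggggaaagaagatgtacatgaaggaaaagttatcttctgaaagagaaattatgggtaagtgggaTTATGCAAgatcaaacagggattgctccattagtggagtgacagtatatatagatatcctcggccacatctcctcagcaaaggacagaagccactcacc
Defb3: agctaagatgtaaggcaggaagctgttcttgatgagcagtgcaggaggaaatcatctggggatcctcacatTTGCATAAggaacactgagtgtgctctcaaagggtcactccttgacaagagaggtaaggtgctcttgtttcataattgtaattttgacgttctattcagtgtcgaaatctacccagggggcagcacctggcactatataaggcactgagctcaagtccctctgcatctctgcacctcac
The C/EBP-type sequence stood in 6 of the 9 promoters (S100a9, Lcn2, Saa1, Saa3, Defb3 and Slpi), against 9.56% of 32851 RefSeq promoters cut to the same 250 bases. It lay between 99 bases (Saa3) and 241 bases (Slpi) before the start. TATAAA stood in 1 of 9 (S100a8, 30 bases before the start), against 7.59% of all promoters. The NF-kB consensus, searched on both strands, stood in 1 of 9 (Pglyrp1, 93 bases before the start), against 7.25%. TGANTCA (AP-1 type) and TTCNNNGAA (STAT type), both palindromes, stood in none of the 9, against 6.75% and 7.02%. These are matches of letters and were not tested as binding sites.

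The comparison of vismodegib-treated with untreated BCC skin asked what the drug treatment changed in tumour-bearing skin. Of the 10 genes, 9 rose and none fell, while 8.03% of all genes tested rose and 9% fell (edgeR's quasi-likelihood F test with Benjamini-Hochberg adjustment over the 15760 genes, adjusted p under 0.05; "rose" and "fell" are used in this sense throughout). The median of the 10 log2 fold changes was 6.06, against 0.05 over all genes tested. For 8 of the 10 genes every vismodegib mouse was above every BCC mouse, which held for 7.63% of all genes. Among all genes ordered by the size of the rise, S100a9, Saa3, S100a8 and Defb3 took places 4 to 7, Saa1 place 13 and Lcn2 place 40. The number of rises was 6 without BCC mouse 8 or vismodegib mouse 9, and 7 to 9 without any other single mouse of these groups.

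Against BCC skin 2 of the 10 genes rose, Lcn2 and Saa3, and none fell, while 6.1% of all genes rose and 1.65% fell. The median was 2.06, against -0.04 over all genes, and for 2 of the 10 every AFL mouse was above every BCC mouse (11.5% of all genes). Neither call held without AFL mouse 11, and 1 held without BCC mouse 8. Compared directly, 3 of the 10 genes, Defb3, Saa1 and Lcn2, fell in AFL relative to vismodegib skin and none rose, while 2.46% of all genes fell and 6.69% rose. The median of that comparison was -2.36, against -0.06 over all genes. For 4 of the 10 genes every AFL mouse was below every vismodegib mouse (9.24% of all genes). Without AFL mouse 11 or vismodegib mouse 6, 5 genes fell. The number was 2 without AFL mouse 2 or 7 or vismodegib mouse 1 or 9. These comparisons share the vismodegib, BCC or AFL mice with one another.

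Tumour-bearing skin without treatment differed from healthy skin in few of these genes. In BCC against healthy skin 2 of the 10 genes rose, Slpi and Defb3, and none fell, while 2.66% of all genes rose and 0.159% fell. The median was 1.10, against 0.00 over all genes, and in 4 of the 10 every BCC mouse was above every healthy mouse (5.18% of all genes). Neither call held without BCC mouse 4 or 5 or healthy mouse 13, 14, 15 or 16, and 1 held without healthy mouse 10. Against healthy skin, 7 of the 10 genes rose in AFL skin (7.95% of all genes) and 9 rose in vismodegib skin (7.57% of all genes), with medians of 4.38 and 7.04; without AFL mouse 11 the count for AFL was 4. In 7 genes every AFL mouse was above every healthy mouse (14.7% of all genes), and in 9 every vismodegib mouse was (9.33%).

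**Figure D1:**
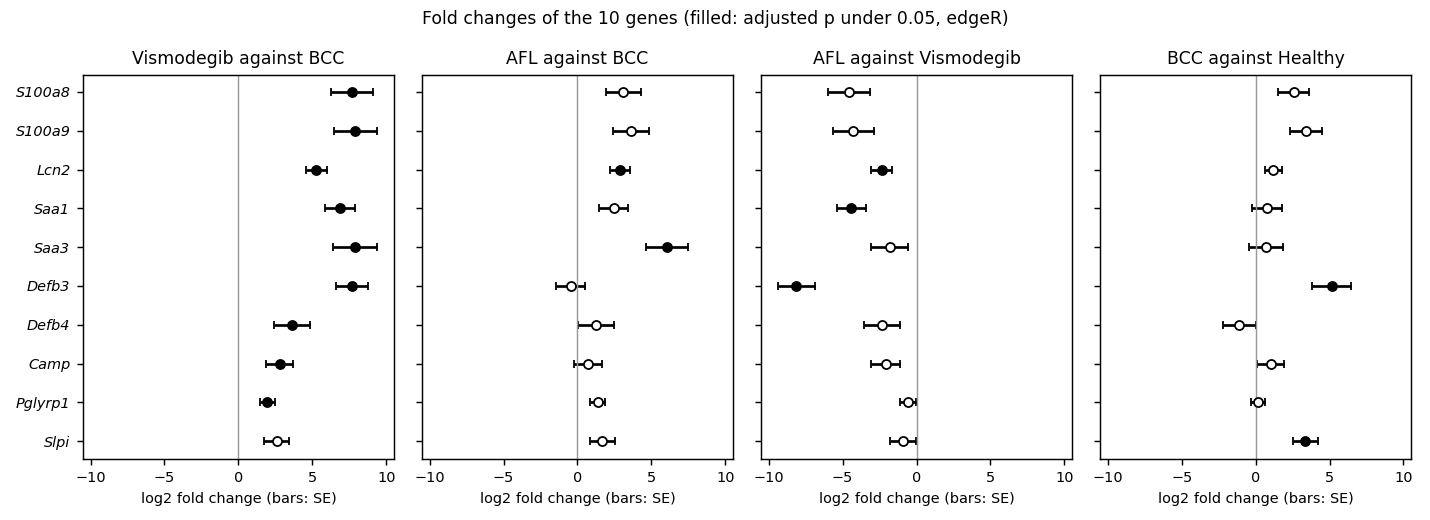
Log2 fold change (x axis, with SE as bars) of the 10 genes (rows) in 4 comparisons, filled where the adjusted p of edgeR's quasi-likelihood test was under 0.05. All 10 points lie right of 0 for vismodegib against BCC, with 9 filled, while AFL against BCC has 2 filled points and AFL against vismodegib lies wholly left of 0 with 3 filled.

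S100a8 had 63.7, 27.2 and 798 CPM in AFL mice 2, 7 and 11, and 2450, 1080, 23300 and 1760 CPM in vismodegib mice 1, 6, 9 and 12. BCC mice 3, 4, 5 and 8 had 11.5, 64.7, 51.7 and 9.75 CPM, and healthy mice 10, 13, 14, 15 and 16 had 11.3, 8.28, 3.67, 4.11 and 1.75 CPM. All 4 vismodegib mice were above all 12 others, mouse 9 by the widest margin. AFL mouse 11 stood well above the other AFL mice, which overlapped the BCC mice.

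S100a8 rose 208-fold in vismodegib against BCC skin (log2 fold change 7.70, SE 1.44, adjusted p = 0.00283, edgeR). S100a9, the other subunit, rose 241-fold (7.91, SE 1.45, adjusted p = 0.0025, edgeR). Without vismodegib mouse 9 these log2 values were 5.71 and 6.04, still past the threshold. In AFL against BCC skin neither gene passed: S100a8 stood at 3.11 (SE 1.21, adjusted p = 0.146) and S100a9 at 3.63 (SE 1.22, adjusted p = 0.0882). Without AFL mouse 11 these values were 0.35 (adjusted p = 0.949, edgeR) and 0.63 (adjusted p = 0.873, edgeR). Without AFL mouse 7 S100a9 passed, at 4.19 (adjusted p = 0.049, edgeR). Of 19 alternatives, S100a8 passed in 1, with days since induction as a covariate (5.37, adjusted p = 0.0291, edgeR). S100a9 passed in 4 of 19, among them that covariate (5.94, adjusted p = 0.016, edgeR) and DESeq2 (adjusted p = 0.0352). Days since induction did not overlap between AFL and BCC mice, so this covariate cannot separate laser from time.

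S100a9 had 78.5, 29.3 and 1140 CPM in AFL mice 2, 7 and 11, and 2850, 1280, 25900 and 2340 CPM in vismodegib mice 1, 6, 9 and 12. BCC mice 3, 4, 5 and 8 had 8.63, 63.0, 48.4 and 14.2 CPM, and healthy mice had 7.13, 2.54, 1.79, 2.81 and 1.49 CPM in the same order as above. Again no vismodegib mouse overlapped with any other mouse, and every BCC mouse was above every healthy mouse for S100a9 but not for S100a8. BCC against healthy skin did not pass for either gene, with S100a8 at 2.56 (SE 1.06, adjusted p = 0.277) and S100a9 at 3.42 (SE 1.08, adjusted p = 0.128). S100a9 passed in 2 of 20 alternatives, with DESeq2 (adjusted p = 0.035) and with only these groups in the edgeR fit (adjusted p = 0.0167).

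AFL and vismodegib skin did not overlap for these genes, but the direct comparison missed the threshold. It gave -4.59 for S100a8 (SE 1.41, adjusted p = 0.0539, edgeR) and -4.28 for S100a9 (SE 1.38, adjusted p = 0.064, edgeR). Both passed without AFL mouse 11 (-7.26 and -7.20) and without vismodegib mouse 6 (-4.95 and -4.64). Without vismodegib mouse 9 the values were -2.61 (adjusted p = 0.157) and -2.41 (adjusted p = 0.189). In AFL against healthy skin S100a8 rose by 5.67 on the log2 scale (SE 1.22, adjusted p = 0.00651) and S100a9 by 7.05 (SE 1.28, adjusted p = 0.00182). The call for S100a8 ended without AFL mouse 11 (2.93, adjusted p = 0.132), while S100a9 kept it at 4.06.

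The calprotectin genes together made up 0.48, 0.233, 2.91 and 0.402% of all counts in vismodegib mice 1, 6, 9 and 12. The share was 0.0148, 0.00557 and 0.192% in AFL mice 2, 7 and 11, between 0.00209 and 0.0138% in BCC mice and between 0.000335 and 0.00188% in healthy mice. Vismodegib mouse 9, with the largest share, also had the lowest TMM scaling factor (0.591, against 0.906 to 1.18 in the other mice). The ratio of S100a9 to S100a8 counts, from transcripts of similar length (519 and 486 bases), was 1.08 to 1.43 in AFL mice and 1.11 to 1.33 in vismodegib mice. It was 0.751 to 1.45 in BCC mice and 0.306 to 0.851 in healthy mice, all of which had more S100a8 than S100a9 counts.

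**Figure D2:**
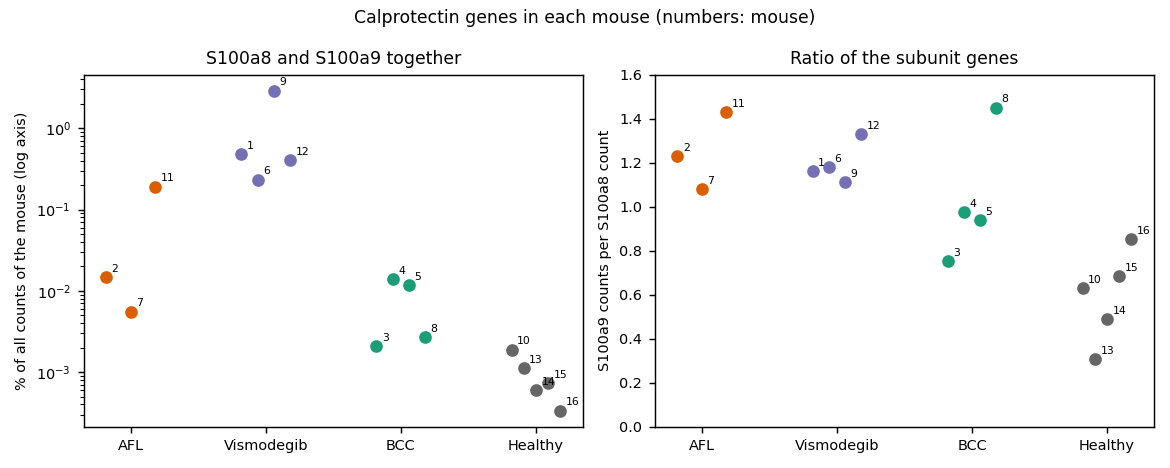
Share of all counts taken by S100a8 and S100a9 together (left, log axis, %) and S100a9 counts per S100a8 count (right) in each mouse, one point per mouse with its number. The vismodegib mice lie between 0.233 and 2.91% and the healthy mice between 0.000335 and 0.00188%, and the ratio is below 1 in all 5 healthy mice.

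Lcn2 had 34.1, 24.0 and 158 CPM in AFL mice 2, 7 and 11, and 324, 82.0, 819 and 260 CPM in vismodegib mice 1, 6, 9 and 12. BCC mice 3, 4, 5 and 8 had 7.30, 14.0, 8.55 and 8.83 CPM, and healthy mice 10, 13, 14, 15 and 16 had 5.71, 5.77, 3.31, 3.27 and 3.17 CPM. The groups formed a ladder: every treated mouse was above every BCC mouse, and every BCC mouse above every healthy mouse. AFL mouse 11 overlapped with the vismodegib mice.

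Lcn2 rose in vismodegib against BCC skin by 5.26 on the log2 scale (38.3-fold, SE 0.71, adjusted p = 0.000389, edgeR), or by 4.53 without vismodegib mouse 9. It rose in AFL against BCC skin by 2.89 (7.43-fold, SE 0.66, adjusted p = 0.0117, edgeR). That call ended without AFL mouse 11 (1.55, adjusted p = 0.188). In AFL relative to vismodegib skin Lcn2 fell by 2.37 (SE 0.70, adjusted p = 0.0441, edgeR). This call ended without AFL mouse 2 (-1.95), AFL mouse 7 (-1.95), vismodegib mouse 1 (-2.43) or vismodegib mouse 9 (-1.66), and without AFL mouse 11 the value was -3.65. BCC and healthy skin stood 1.19 apart (SE 0.57, adjusted p = 0.362).

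Saa3 is the serum amyloid A made outside the liver in mice, by macrophages and epithelia. It had 16.8, 9.54 and 189 CPM in AFL mice 2, 7 and 11, and 61.6, 14.6, 874 and 59.6 CPM in vismodegib mice 1, 6, 9 and 12. BCC mice had 0.898, 2.29, 0.808 and 0.300 CPM (mice 3, 4, 5 and 8), and healthy mice had between 0.386 and 1.14 CPM. Treated mice of both kinds were all above the untreated ones, BCC overlapped with healthy skin, and AFL overlapped with vismodegib skin.

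Saa3 was the gene of the set with the largest fold change after AFL, 66.7-fold over BCC skin (log2 fold change 6.06, SE 1.41, adjusted p = 0.0157, edgeR). The call ended without AFL mouse 11 (3.57, adjusted p = 0.135) and without BCC mouse 8 (5.74, adjusted p = 0.0563), and without BCC mouse 4 the value was 6.74. In vismodegib against BCC skin it rose 235-fold (7.87, SE 1.5, adjusted p = 0.0037, edgeR). The value was 5.41 without vismodegib mouse 9 and 8.56 without BCC mouse 4. AFL and vismodegib skin stood -1.81 apart (SE 1.25, adjusted p = 0.377), with a 95% interval of -4.47 to 0.84, and without vismodegib mouse 9 the sign turned (0.63). In the annotation Saa3 overlaps with Gm31882, whose reads may not have been told apart from its own.

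Saa1 is the classical acute phase form, made mainly by the liver. It had 0.793, 0.244 and 0.682 CPM in AFL mice 2, 7 and 11, and 13.6, 1.49, 24.7 and 9.65 CPM in vismodegib mice 1, 6, 9 and 12. BCC mice had 0 to 0.249 CPM (14 counts over the 4 mice) and healthy mice 0 to 0.145 CPM (14 counts over the 5 mice). All vismodegib mice were above all others, and the smallest AFL value lay just under the largest BCC value.

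Saa1 rose in vismodegib against BCC skin (6.85, SE 1.02, adjusted p = 0.000676, edgeR), with a value of 7.66 without BCC mouse 5. It fell in AFL relative to vismodegib skin by 4.41 (SE 0.99, adjusted p = 0.0107, edgeR) and kept that call when any single mouse was left out. AFL against BCC skin gave 2.44 (SE 0.96, adjusted p = 0.151). Against healthy skin Saa1 rose after AFL by 3.20 (SE 0.92, adjusted p = 0.0382, edgeR), but this call ended without AFL mouse 2 (2.93), AFL mouse 11 (3.00), or healthy mouse 10 (3.05), 13 (2.94), 14 (3.04) or 15 (3.20), and without healthy mouse 16 the value was 4.17. Its neighbour Saa2 has a transcript 94.4% identical to that of Saa1 over 606 aligned bases, so the division of reads between them is uncertain. Saa2 rose as well in vismodegib skin, to 2.14 ± 2.25 CPM against 0.0375 ± 0.0291 CPM in BCC skin (SD, n = 4 each; 5.73, SE 1.06, adjusted p = 0.00254, edgeR), or by 4.80 without vismodegib mouse 9.

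**Figure D3:**
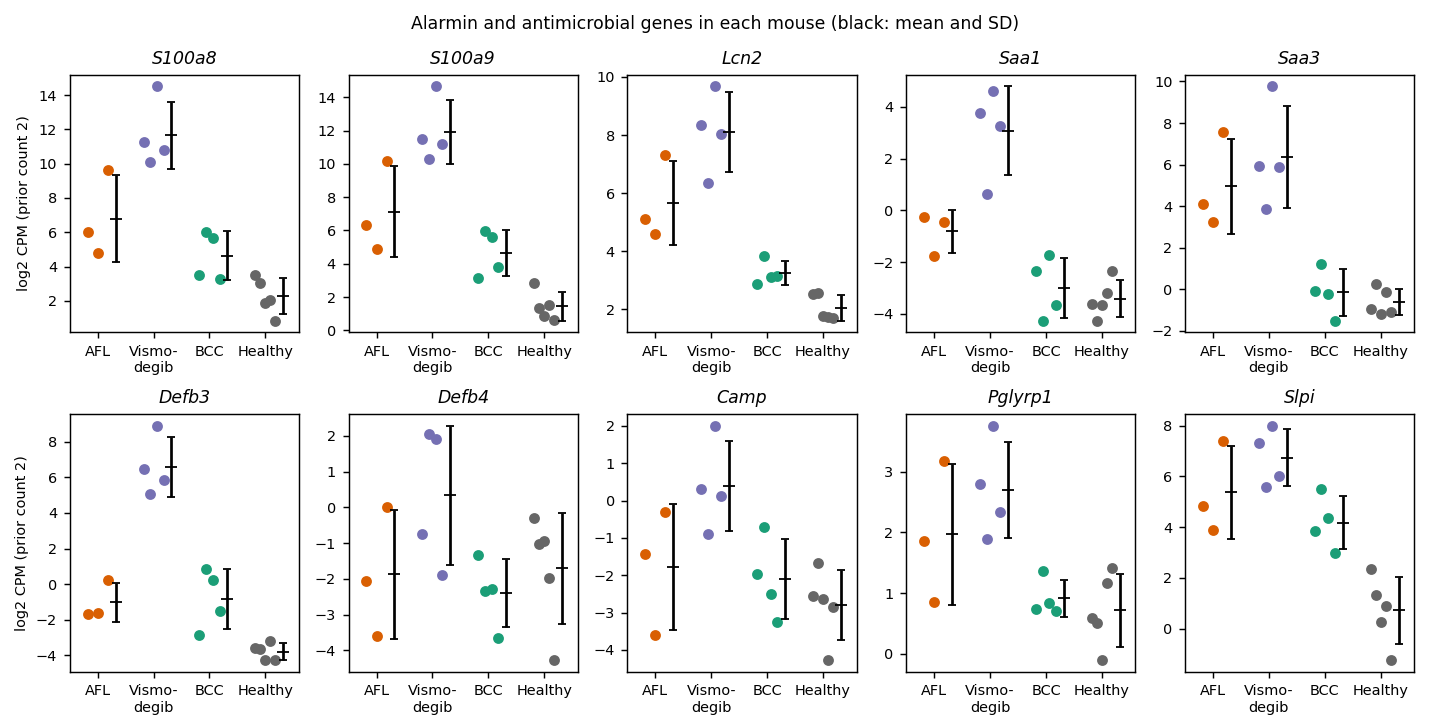
Log2 CPM (y axis, prior count 2) of each of the 10 genes in every mouse, by group, with the mean and SD of each group in black. The 4 vismodegib mice lie above the 12 other mice for S100a8, S100a9, Saa1 and Defb3, while for Lcn2, Saa3, Pglyrp1 and Slpi AFL mouse 11 lies within their range.

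Defb3 is a β-defensin induced in mouse epithelia by infection and inflammation. It had 0.254, 0.274 and 1.12 CPM in AFL mice 2, 7 and 11, and 90.4, 33.6, 485 and 57.5 CPM in vismodegib mice 1, 6, 9 and 12. BCC mice 3, 4, 5 and 8 had 0.0869, 1.73, 1.12 and 0.300 CPM, and the 5 healthy mice had 4 counts between them. The lowest vismodegib mouse was far above the highest of the other 12, and AFL skin overlapped with BCC skin.

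Defb3 was the gene of the set that separated the treatments most widely. It rose 206-fold in vismodegib against BCC skin (7.68, SE 1.07, adjusted p = 0.000527, edgeR), with values of 6.26 without vismodegib mouse 9 and 8.38 without BCC mouse 4. It was 285-fold lower in AFL than in vismodegib skin (-8.15, SE 1.25, adjusted p = 0.000989, edgeR), with values of -6.74 without vismodegib mouse 9 and -9.24 without AFL mouse 11. AFL against BCC skin gave -0.47 (SE 0.97, adjusted p = 0.851) with a 95% interval of -2.53 to 1.59, and its sign turned without BCC mouse 4 (0.23).

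Against healthy skin, where it rested on 4 counts, Defb3 rose in BCC skin by 5.14 (SE 1.30, adjusted p = 0.0448, edgeR). All BCC mice were above all healthy mice, but the call ended without BCC mouse 4 (4.44) or 5 (4.98) and without any single healthy mouse (4.65 to 5.75). In AFL against healthy skin it rose by 4.67 (SE 1.36, adjusted p = 0.0424, edgeR). That call ended without AFL mouse 2 (4.99) or 11 (3.50) and without any single healthy mouse (4.18 to 5.28).

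Defb4, the other inducible β-defensin of the set, was low everywhere. It had 0.190, 0.0305 and 0.962 CPM in AFL mice 2, 7 and 11, 0.546, 4.08, 3.72 and 0.220 CPM in vismodegib mice 1, 6, 9 and 12, 0.0272 to 0.348 CPM in BCC mice and 0 to 0.769 CPM in healthy mice. Vismodegib mice 6 and 9 stood above all other mice, and mouse 12 overlapped with the BCC mice. It rose in vismodegib against BCC skin by 3.63 (SE 1.19, adjusted p = 0.0477, edgeR), a call that ended without BCC mouse 4 (3.57), 5 (3.59) or 8 (3.22) or vismodegib mouse 6 (3.08) or 9 (3.25), with 4.25 without BCC mouse 3. The transcripts of Defb3 and Defb4 are 77.1% identical over 275 aligned bases.

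Camp encodes the cathelicidin precursor, which neutrophils store in granules and keratinocytes can produce. It had 0.317, 0.0305 and 0.760 CPM in AFL mice 2, 7 and 11, 1.20, 0.487, 3.98 and 1.04 CPM in vismodegib mice 1, 6, 9 and 12, 0.0545 to 0.558 CPM in BCC mice and 0 to 0.262 CPM in healthy mice. Vismodegib mouse 6 overlapped with the BCC mice and the other 3 lay above them. It rose in vismodegib against BCC skin by 2.80 (SE 0.91, adjusted p = 0.0456, edgeR), a call that ended without vismodegib mouse 1 (2.93), 9 (1.96) or 12 (2.97) or BCC mouse 3 (2.73), 5 (2.58) or 8 (2.39), with 3.67 without BCC mouse 4.

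Pglyrp1, a bactericidal peptidoglycan-binding protein of neutrophil granules, had 3.58, 1.77 and 8.98 CPM in AFL mice 2, 7 and 11 and 6.90, 3.68, 13.5 and 5.01 CPM in vismodegib mice 1, 6, 9 and 12. BCC mice had 1.58 to 2.53 CPM and healthy mice 0.883 to 2.62 CPM. Every vismodegib mouse was above every BCC and healthy mouse, and AFL mouse 7 lay within their range. It rose in vismodegib against BCC skin by 1.96 (3.88-fold, SE 0.51, adjusted p = 0.0176, edgeR), a call that ended without vismodegib mouse 9 (1.49, adjusted p = 0.0562) or BCC mouse 8 (1.81, adjusted p = 0.0599). The increase after AFL over BCC skin was 1.36 (SE 0.53, adjusted p = 0.146) and did not pass; without AFL mouse 11 it was 0.48 (adjusted p = 0.766).

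Slpi, an inhibitor of neutrophil elastase with antimicrobial activity, was, with Defb3, one of the members that rose in BCC against healthy skin. It had 28.6, 14.6 and 170 CPM in AFL mice 2, 7 and 11, and 160, 48.2, 257 and 65.1 CPM in vismodegib mice 1, 6, 9 and 12. BCC mice 3, 4, 5 and 8 had 14.5, 45.4, 20.5 and 7.90 CPM, and healthy mice 10, 13, 14, 15 and 16 had 5.06, 2.42, 1.16, 1.79 and 0.376 CPM. Every induced mouse, treated or not, was above every healthy mouse.

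Slpi rose 10.3-fold in BCC against healthy skin (3.36, SE 0.83, adjusted p = 0.0391, edgeR). The call ended without BCC mouse 4 (2.74) or 5 (3.42) or healthy mouse 13 (3.41), 14 (3.22), 15 (3.31) or 16 (3.08), and without healthy mouse 10 the value was 3.96. Vismodegib against BCC skin gave 2.59 (SE 0.86) with an adjusted p of 0.05 that lay just over the threshold, although every vismodegib mouse was above every BCC mouse; it passed without BCC mouse 4 (3.21) or vismodegib mouse 6 (2.86). AFL against BCC skin gave 1.69 (SE 0.87, adjusted p = 0.295), and -0.08 without AFL mouse 11. Slpi overlaps in the annotation with the microRNA gene Mir7678.

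In the AFL, vismodegib and BCC groups the same mouse was often the highest. Vismodegib mouse 9 was the highest of its group for 9 of the 10 genes and vismodegib mouse 6 the lowest for 9. AFL mouse 11 was the highest of its group for 9 genes and AFL mouse 7 the lowest for 9, and BCC mouse 4 was the highest BCC mouse for 8. Healthy mice were split: mouse 10 was the highest for 4 genes, mouse 13 for 3, mouse 16 for 2 and mouse 15 for 1, while mouse 16 was the lowest for 5. Paired libraries of a mouse lay close for some genes and apart for others. S100a8 had 867 and 760 CPM in those of AFL mouse 11 and 1740 and 1720 CPM in those of vismodegib mouse 12. Defb3 had 1.73 and 0.542 CPM and Saa3 147 and 239 CPM in those of AFL mouse 11, and Saa1 had 5.68 and 13.4 CPM in those of vismodegib mouse 12.

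The cytokine genes known to induce the set differed between the treatments. Of 30 tested cytokines, receptors and transcription factors of this kind, 15 rose and none fell in vismodegib against BCC skin (8.03% and 9% of all genes). In AFL against BCC skin 5 rose and none fell (6.1% and 1.65% of all genes). Both comparisons had 0 falls also at an unadjusted p under 0.05. In AFL against vismodegib skin 2 rose, near the 6.69% of all genes, and 5 fell (2.46% of all genes). The medians were 0.90, 0.47 and -0.70, against 0.05, -0.04 and -0.06 over all genes tested. Leaving out single mice gave 2 to 5 rises for AFL against BCC, with 2 without BCC mouse 3 or 8 or AFL mouse 11 and 3 without BCC mouse 4, and 12 without vismodegib mouse 9 for vismodegib against BCC. For AFL against vismodegib the falls numbered 3 without AFL mouse 2 or vismodegib mouse 1 or 12, and the rises 1 without AFL mouse 11 or vismodegib mouse 6, 9 or 12.

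Il17a, which encodes IL-17A, had 378 counts over the 4 vismodegib mice (3.46 ± 3.61 CPM, SD, n = 4), against 3 counts over the 4 BCC mice. The AFL mice held 4 counts in all and the healthy mice 1. It rose in vismodegib against BCC skin (adjusted p = 0.000389, edgeR). Il17f had 13.2 ± 14.9 CPM in vismodegib skin and 0.113 ± 0.0889 CPM in BCC skin (SD, n = 4 each; 6.80, SE 0.86, adjusted p = 0.000278, edgeR), with 5.63 without vismodegib mouse 9 and 7.42 without BCC mouse 8. In AFL skin Il17f averaged 0.0723 ± 0.0166 CPM (n = 3), and it fell relative to vismodegib skin by 7.46 (SE 1.01, adjusted p = 0.000371, edgeR), or by 6.30 without vismodegib mouse 9. Il22 had 291 counts in vismodegib, 0 in AFL, 3 in BCC and 0 in healthy mice. Outside the vismodegib group Il17a reached at most 0.0634 CPM, Il17f 0.245 CPM and Il22 0.0817 CPM. All lay under the 0.303 CPM of the low-count filter, so these genes, like Saa1, were tested because of their level after vismodegib.

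After AFL the inducers with the smallest p were Osm, encoding oncostatin M, and Il1b, encoding IL-1β. Osm had 22.4 ± 26.4 CPM in AFL skin (n = 3) and 0.732 ± 0.182 CPM in BCC skin (SD, n = 4; 4.93, SE 0.66, adjusted p = 0.0002, edgeR), and 3.26 without AFL mouse 11. Il1b had 303 ± 403 CPM in AFL skin and 8.20 ± 4.83 CPM in BCC skin (5.21, SE 1.02, adjusted p = 0.00461, edgeR), and 3.09 without AFL mouse 11. In BCC against healthy skin 2 of the 30 rose (2.66% of all genes), both IL-36 ligands. Il1f6 (IL-36α) rose by 4.38 (SE 0.55, adjusted p = 0.000371, edgeR) and Il1f8 (IL-36β) by 2.25 (SE 0.47, adjusted p = 0.0128, edgeR). Il1f8 lost its call without BCC mouse 5 (1.88, adjusted p = 0.0559, edgeR).

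**Figure D4:**
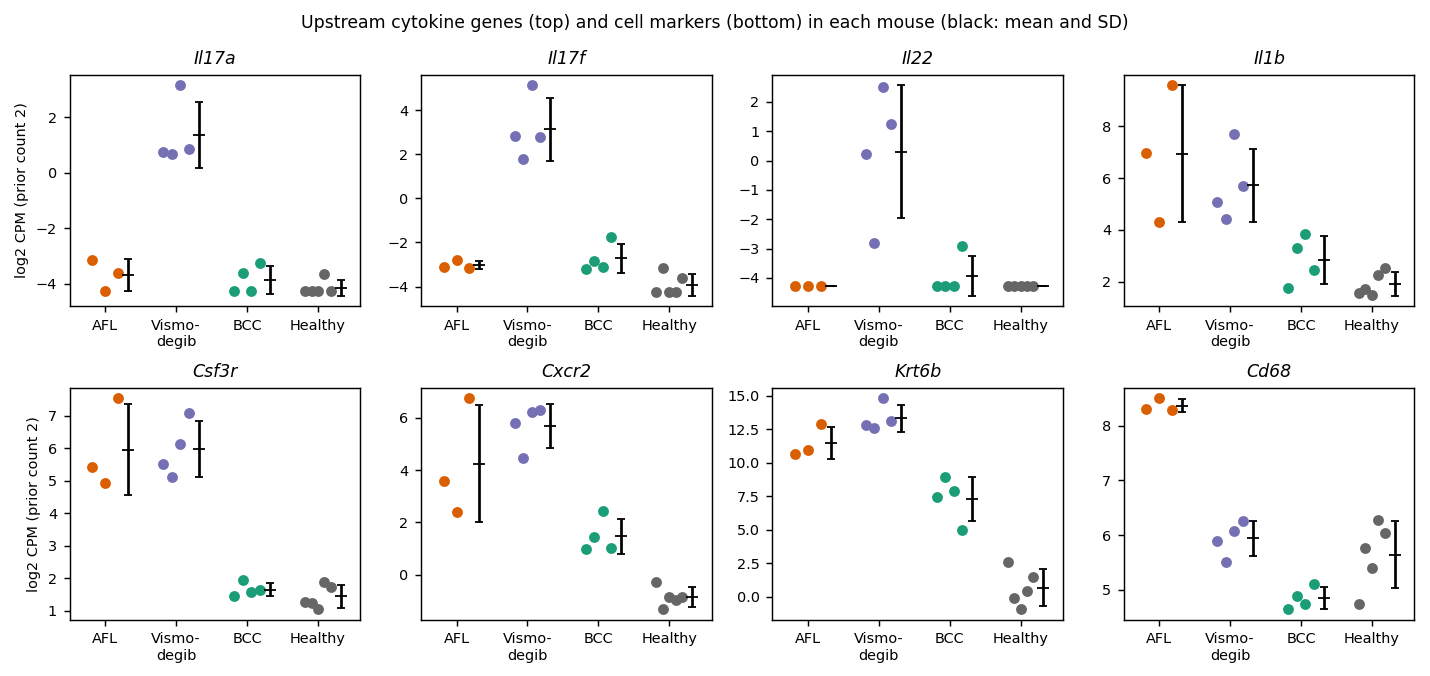
Log2 CPM (y axis, prior count 2) of 4 cytokine genes (top) and 4 cell markers (bottom: Csf3r and Cxcr2 of neutrophils, Krt6b of wound keratinocytes, Cd68 of macrophages) in every mouse, by group, with the mean and SD in black. Il17a and Il17f are higher in all 4 vismodegib mice than in any other mouse, Csf3r is higher in every treated mouse than in any untreated one, and Cd68 is highest in the 3 AFL mice. Cxcr2 overlaps: AFL mouse 7 (5.21 CPM) lies just under BCC mouse 5 (5.29 CPM), while the other treated mice lie above all untreated ones.

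Markers of several cell types also differed between the groups, not always in the direction of the set. Of 8 neutrophil markers, 6 rose in AFL against BCC skin (6.1% of all genes, median 5.35, 4 rises without AFL mouse 11). In vismodegib against BCC skin 7 rose (8.03% of all genes, median 4.80). With Ly6g at the bound set by 3 counts over the BCC group the medians were 5.13 and 4.57. None of the 8 passed in AFL against vismodegib skin in edgeR, DESeq2 or limma voom (median 0.55; 1 rose at an unadjusted p under 0.05 in edgeR). Their summed level was 78.9, 114 and 561 CPM in AFL mice 7, 2 and 11, 87.6 to 298 CPM in vismodegib mice, 21.7 to 82.0 CPM in BCC mice and 38.3 to 72.7 CPM in healthy mice; Ly6g, a defining marker, was at 0 in all BCC and all healthy mice. Il1r2, the neutrophil marker with the highest mean level, overlapped between all groups (39.6 to 107 CPM in AFL, 26.5 to 111 in vismodegib, 16.6 to 76.6 in BCC and 35.2 to 67.8 CPM in healthy mice). The neutrophil receptor gene Csf3r rose to 86.6 ± 86.8 CPM in AFL skin (n = 3) against 3.12 ± 0.48 CPM in BCC skin (SD, n = 4; 4.80, SE 0.59, adjusted p = 9.86e-05, edgeR), with 3.52 without AFL mouse 11. In vismodegib skin it rose to 71.9 ± 45.7 CPM (n = 4; 4.53, SE 0.57, adjusted p = 0.000276, edgeR). The part of neutrophils in the levels of the 10 genes was not tested.

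Of 8 wound keratinocyte markers, 6 rose in vismodegib against BCC skin (8.03% of all genes, median 4.28). In AFL against BCC skin 3 rose (6.1% of all genes, median 2.13, none without AFL mouse 11). In AFL against vismodegib skin 4 fell (2.46% of all genes, median -1.77, 1 or 2 without any of AFL mice 2, 7 and 11 or vismodegib mice 1, 9 and 12). Their sum was 6710 to 21100 CPM in AFL, 24000 to 71300 in vismodegib, 2920 to 9010 in BCC and 1720 to 5430 in healthy mice, with none of the 8 at 0 in any group. Krt6b and Krt6a, the keratins with the highest levels among them, are made by keratinocytes of healing skin. Krt6b lay between 1560 and 7430 CPM in AFL, 6030 and 28400 in vismodegib, 31.9 and 479 in BCC and 0.469 and 5.82 CPM in healthy mice. Krt6a lay between 2020 and 7860 CPM in AFL, 7050 and 14400 in vismodegib, 446 and 2070 in BCC and 319 and 1640 CPM in healthy mice. The part of wound keratinocytes in the levels of the 10 genes was not tested.

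Of 8 macrophage markers 7 rose in AFL against BCC skin (6.1% of all genes, median 2.53). In vismodegib against BCC skin 3 rose and 1 fell (8.03% and 9% of all genes, median 1.05, 5 rises without vismodegib mouse 1). In AFL against vismodegib skin 6 rose (6.69% of all genes, median 1.79). The summed macrophage markers were 1770 to 1840 CPM in AFL, 415 to 991 in vismodegib, 218 to 348 in BCC and 260 to 698 in healthy mice, with none at 0. The part of macrophages in the levels of the 10 genes was not tested. Hair growth also varied: the summed growing hair markers were 17500 CPM in vismodegib mouse 6 and 13900 CPM in BCC mouse 3, against 39.5 to 509 CPM in the other induced mice and 1270 to 33300 CPM in healthy mice. With a growing hair score as a covariate, all 10 genes rose in vismodegib against BCC skin and none passed in BCC against healthy skin. Of 9 keratinocyte markers 3 rose in vismodegib against BCC skin (8.03% of all genes). Of 7 fibroblast markers 2 fell there (9% of all genes) and 3 rose in AFL against vismodegib skin (6.69% of all genes). No adipocyte, muscle or growing hair marker passed in AFL or vismodegib against BCC skin or between them in edgeR or limma voom, apart from growing hair genes in DESeq2, of which 2 fell in AFL against BCC skin and 3 in AFL against vismodegib skin. At an unadjusted p under 0.05 in edgeR, 1 adipocyte marker rose and 1 growing hair marker fell in AFL against BCC skin, and 2 growing hair markers fell in AFL against vismodegib skin.

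Other proteins of the same kind moved with the set less evenly. Of 21 tested antimicrobial proteins and inhibitors of the epithelium outside the set, 10 rose and none fell in vismodegib against BCC skin (8.03% and 9% of all genes, median 1.25, 0 falls also at an unadjusted p). That count was 6, 4, 4 and 5 without BCC mouse 3, BCC mouse 4, BCC mouse 8 and vismodegib mouse 9. In AFL against BCC skin 5 rose and none fell (6.1% and 1.65% of all genes, median 0.32, 0 falls at an unadjusted p), or 3 without BCC mouse 3, 4 or 8 or AFL mouse 11. Wfdc12, a relative of Slpi, rose after both treatments, by 4.03 in AFL skin (SE 0.62, adjusted p = 0.000639, edgeR) and by 3.91 in vismodegib skin (SE 0.60, adjusted p = 0.000877, edgeR). Il33, an alarmin cytokine, rose by 3.37 in vismodegib skin (SE 0.59, adjusted p = 0.00195, edgeR), and Adm, encoding the antimicrobial peptide adrenomedullin, rose by 1.87 in AFL skin (SE 0.35, adjusted p = 0.0026, edgeR).

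Of 12 tested neutrophil granule genes, 8 rose and 1 fell in AFL against BCC skin (6.1% and 1.65% of all genes, median 2.84). In AFL against vismodegib skin 3 rose and none fell (6.69% and 2.46% of all genes, median 1.3). In vismodegib against BCC skin 6 rose and 1 fell (8.03% and 9% of all genes, median 0.86, 3 rises without BCC mouse 4). Ncf1 and Cybb, subunits of the phagocyte oxidase that macrophages carry too, rose after AFL by 2.86 (SE 0.29, adjusted p = 3.05e-05, edgeR) and 3.38 (SE 0.44, adjusted p = 0.000175, edgeR). Chil3, a chitinase-like protein of neutrophils and macrophages, rose by 5.67 after vismodegib (SE 0.88, adjusted p = 0.000919, edgeR), or by 4.11 without vismodegib mouse 9. Bpi fell in vismodegib against BCC skin by 3.25 (SE 0.71, adjusted p = 0.00693, edgeR), or by 3.88 and 2.64 without vismodegib mouse 9 and 12, and it rose in BCC against healthy skin by 4.38 (SE 0.70, adjusted p = 0.0017, edgeR).

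Of 15 acute phase genes besides Saa1 and Saa3, 6 rose after AFL (6.1% of all genes, median 1.74) and 9 after vismodegib (8.03% of all genes, median 1.49), each against BCC skin. None fell, also at an unadjusted p. Hp (haptoglobin) reached 942 ± 631 CPM in vismodegib skin against 161 ± 31.4 CPM in BCC skin (SD, n = 4 each; 2.55, SE 0.45, adjusted p = 0.00201, edgeR), and Serpina3n, an antichymotrypsin, rose there by 1.84 (SE 0.32, adjusted p = 0.0018, edgeR). After AFL the complement factor Cfb rose by 2.62 (SE 0.44, adjusted p = 0.00132, edgeR) and Lrg1 by 2.39 (SE 0.44, adjusted p = 0.00241, edgeR). In BCC against healthy skin Lrg1 fell by 1.74 (SE 0.40, adjusted p = 0.0237, edgeR), a call that ended without BCC mouse 4, 5 or 8 or healthy mouse 13, 15 or 16. Of 10 other S100 genes none passed in AFL against BCC skin in edgeR, DESeq2 or limma voom (0 at an unadjusted p under 0.05 in edgeR), and 2 rose in vismodegib against BCC skin (8.03% of all genes). These were S100a11 by 1.25 (SE 0.33, adjusted p = 0.0182, edgeR), lost without BCC mouse 8 (1.09), and S100a14 by 1.37 (SE 0.41, adjusted p = 0.0339, edgeR), lost without BCC mouse 4 (1.36), 5 (1.28) or 8 (1.17) or vismodegib mouse 9 (0.67).

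Of 16 receptors and partners of the encoded proteins, 5 rose and 1 fell in AFL against BCC skin (6.1% and 1.65% of all genes, median 1.09). In vismodegib against BCC skin 4 rose and 1 fell (8.03% and 9% of all genes, median 0.67, 2 rises without BCC mouse 4 or vismodegib mouse 9 and 1 without BCC mouse 8). Cd14, the co-receptor of Toll-like receptor 4 for bacterial lipopolysaccharide, had 279 ± 351 CPM in AFL skin (n = 3) and 7.77 ± 1.49 CPM in BCC skin (SD, n = 4; 5.17, SE 0.82, adjusted p = 0.000808, edgeR), or 3.26 without AFL mouse 11. Tlr2 rose by 2.36 there (SE 0.32, adjusted p = 0.000241, edgeR). After vismodegib, Fpr2, a receptor for serum amyloid A and cathelicidin peptides, rose by 4.42 (SE 0.92, adjusted p = 0.00489, edgeR), or by 2.90 without vismodegib mouse 9. Slc22a17, which encodes a proposed lipocalin 2 receptor, fell by 1.46 (SE 0.25, adjusted p = 0.00165, edgeR).

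For each member, the 3 genes outside the set with the most similar pattern over the 16 mice were taken. Likeness was the root mean square difference of log2 CPM after centring each gene, so a smaller value means a closer match; S100a8 and S100a9 themselves differed by 0.59. Nearest to S100a8 were Csta3 (1.12), Lce3b (1.15) and Sprr2i (1.19), to S100a9 Sprr2i (1.11), Serpinb3a (1.16) and Sprr2e (1.31), and to Defb3 Sprr2b (0.98), Sprr2i (1.07) and Serpinb3a (1.16). Nearest to Lcn2 were Csta3 (0.70), Tcf23 (0.76) and Fetub (0.77), to Saa3 Csta3 (1.04), Stfa2l1 (1.08) and Chil3 (1.16), and to Saa1 its neighbour Saa2 (1.13), Gm5414 (1.14) and Csta3 (1.16). For Slpi they were Tmprss11g (0.91), Adgrg7 (0.96) and Teddm3 (1.00), for Defb4 Car2 (0.89), H2bc11 (0.93) and Dnmt3l (1.01), and for Camp Samd12 (0.70), Urah (0.78) and Nppb (0.78). Pglyrp1, the least variable of the 10 genes, had Slc16a3 (0.45), Pgk1 (0.47) and Slc16a1 (0.48) nearest to it.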

How the data were processed

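Bulk RNA-seq of skin was made with a directional kit after oligo dT selection, per the labels' protocols. The deposited values are expected counts per gene that the authors made with Bowtie2 and RSEM on GRCm39, per the submitters' processing notes. No source used here gives tool versions, the annotation or the strand setting. RSEM divides reads that map to several genes, so paralogs, overlapping genes and antisense genes are uncertain.

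Expected counts were rounded (3.42% of values were not whole), and the libraries of mice 11, 12 and 16 were summed per mouse, giving 16 mice. The labels give the libraries of mouse 16 ages of 128 and 135 days. Genes were filtered with filterByExpr, which kept 15760 and removed 2761 of 18521. Mice of all 4 groups were fitted together in edgeR 4.0.16 (R 4.3.3) with TMM scaling and robust quasi-likelihood (common dispersion 0.178), and 6 contrasts were tested. CPM uses TMM-scaled library sizes, log2 CPM has a prior count of 2, and SE is the log2 fold change divided by the square root of F.

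The 10 genes and 14 lists of other genes (179 genes, 177 in the table, 169 tested) were chosen with earlier results of these data known. From each list of genes the text names the 2 with the smallest p among those past the threshold in AFL against BCC, BCC against healthy and vismodegib against BCC skin, from each marker list the 2 genes with the highest mean CPM, and per member the 3 genes nearest in pattern. Il22, Saa2, Ly6g, Cxcr2 and Cd68 fall outside this rule and were chosen after their values were seen. Promoter sequence is from RefSeq, GRCm38.p6, and was read apart from the counts. The NF-kB consensus replaced a first pattern after the result of that pattern had been seen. Pglyrp1 was the only gene of the set matched by either.

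Alternatives were no filter, a filter at 1 CPM in 3 mice, scaling by library size or by DESeq2 size factors, DESeq2 1.42.0, limma 3.58.1 voom, the 19 libraries as samples, 1 library per mouse, only the groups compared, covariates for days since induction and hair growth, a replicate block, and each mouse left out. The steps were checked on simulated data.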

Additional observations from a re-analysis of the deposited data

Results flagged for a closer look

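Dixon's outlier check took 30 sets, each of 1 gene in 1 group of 4 or 5 mice. In 6 of the 30 sets, a mouse lay farther from its nearest neighbour, relative to the group's range, than Dixon's 95% critical value allows. Chance gives about 1 in 20 where values are independent and normally spread. These sets share mice and the CPM were not log-transformed, so that rate need not hold here. Vismodegib mouse 9 accounted for 4 of the 6. It had 23300 CPM of S100a8 (next highest 2450 CPM), 25900 CPM of S100a9 (2850 CPM), 874 CPM of Saa3 (61.6 CPM) and 485 CPM of Defb3 (90.4 CPM). Healthy mouse 10 had 7.13 CPM of S100a9, with the next healthy mouse at 2.81 CPM. BCC mouse 4 had 2.53 CPM of Pglyrp1, with the next BCC mouse at 1.74 CPM. The AFL group, with 3 mice, is too small for this check.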

How the results depend on the processing

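Of the 10 genes, 9 rose in vismodegib against BCC skin, with 7 to 10 under the other settings and 6 to 9 when single mice were left out. S100a8, S100a9, Lcn2, Saa1, Saa3 and Defb3 passed there in all 20 alternatives, Pglyrp1 in 18 of 20, Camp in 9 of 20, Defb4 in 8 of 19 and Slpi in 7 of 20. Vismodegib against healthy skin gave 9 (8 to 9, also with single mice left out), and AFL against healthy skin 7 (5 to 8, and 4 to 8 with single mice left out).

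The smaller counts moved more, and the cause was not tested. BCC against healthy skin gave 2 genes, but 3 in DESeq2 (S100a9 as well), 1 with no filter, 1 at 1 CPM in 3 mice, 1 with 1 library per mouse, and 0 with the replicate block, the growing hair covariate or limma voom (0 to 2 with single mice left out). AFL against BCC skin gave 2, but 3 in DESeq2, 4 with all 19 libraries as samples, 4 with days since induction as a covariate and 1 with the replicate block (0 to 3). AFL against vismodegib skin gave 3, but 2 with 1 library per mouse, days since induction or only these groups, and 5 with 19 libraries, the replicate block, DESeq2 or limma voom (2 to 5); Saa1 and Defb3 passed there in all 19 alternatives.

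Signs turned in BCC against healthy skin for Saa1 (-0.12), Defb4 (0.22) and Pglyrp1 (-0.13) with the hair covariate, and for Pglyrp1 without BCC mouse 4 (-0.05) or healthy mouse 14 (-0.03) and Saa1 without BCC mouse 5 (-0.02). They turned in AFL against BCC skin for Defb3 with days since induction (1.15) or without BCC mouse 4 (0.23), and without AFL mouse 11 for Defb4 (-0.65), Camp (-0.48) and Slpi (-0.08). They turned for Saa3 in AFL against vismodegib skin without vismodegib mouse 9 (0.63), and for Defb4 in AFL against healthy skin with the replicate block (-1.07) or without AFL mouse 11 (-1.75) or healthy mouse 16 (-0.18). With single mice left out, the largest values of the same sign as the full data in these comparisons were 1.73 for Saa1 and 0.34 for Pglyrp1 (BCC against healthy), -1.64 for Defb3, 1.90 for Defb4, 1.57 for Camp and 2.31 for Slpi (AFL against BCC), -4.22 for Saa3 (AFL against vismodegib) and 0.68 for Defb4 (AFL against healthy). None turned in vismodegib against BCC or healthy skin.

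Over all genes, counts past the threshold also moved by more than 1.5 times. In AFL against BCC skin they were 1221, with 2068 on 19 libraries, 715 with days since induction and 2001 in DESeq2 (597 to 1190 with single mice left out). In vismodegib against BCC skin they were 2684, with 1535 with days since induction and 984 with only these groups (1503 to 3418). In AFL against vismodegib skin they were 1442, with 2612 on 19 libraries, 642 with only these groups and 2509 in DESeq2 (732 to 1487). In AFL against healthy skin they were 1456, with 3058, 2874 and 2487 under the same settings (799 to 1665). In vismodegib against healthy skin they were 1834, with 3425, 1121 and 3164, and 1040 with the replicate block (951 to 3490). In BCC against healthy skin they were 445, with 1010 with the hair covariate and 936 in DESeq2 (265 to 798). Library size alone as the scaling put the median of all genes at -0.30 in vismodegib against BCC skin (0.05 with TMM).

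The groups share replicate numbers. Over 21 pairs of mice with the same number, the correlation of deviations from group means ran from -0.38 to 0.62. It was over 0.1 in 7 pairs. Pairs of different numbers were not set beside these, so the check cannot decide whether the numbers pair the mice. Under the replicate block, Lcn2 (2.32) and Saa3 (4.59) lost their calls in AFL against BCC skin and Saa1 (2.79) gained one. Days since induction gave no value against healthy mice, which were not induced. The days did not overlap between AFL and BCC mice, so that covariate cannot separate laser from time there. With 3 to 5 mice a group, Defb4, Camp and Saa1 in untreated skin rested on few counts.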

Other observations

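Levels of the highest genes of the other marker lists, whose counts are given above, were as follows. Of the collagen genes of fibroblasts, Col3a1 lay between 8390 and 9580 CPM in AFL mice, 768 and 2430 in vismodegib mice, 2070 and 6730 in BCC mice and 836 and 3620 in healthy mice. Col1a2 lay between 5270 and 5990 CPM in AFL mice, 494 and 1010 in vismodegib mice, 1700 and 7480 in BCC mice and 726 and 2620 in healthy mice. Of the macrophage genes, Csf1r lay between 335 and 360 CPM in AFL mice, 91.6 and 140 in vismodegib mice, 63.8 and 115 in BCC mice and 75.8 and 210 in healthy mice. Mrc1 lay between 174 and 359 CPM in AFL mice, 87.1 and 347 in vismodegib mice, 16.8 and 76.3 in BCC mice and 44.9 and 114 in healthy mice. Of the basal keratin genes, Krt14 lay between 7030 and 15900 CPM in AFL mice, 11300 and 31200 in vismodegib mice, 3030 and 5660 in BCC mice and 2580 and 4020 in healthy mice, so that every treated mouse was above every untreated one. Krt5 overlapped between treated and untreated mice and lay between 3360 and 5600 CPM in AFL, 7800 and 11200 in vismodegib, 3510 and 9700 in BCC and 4470 and 6970 CPM in healthy mice. The adipocyte gene Fabp4 lay between 505 and 833 CPM in AFL, 206 and 1140 in vismodegib, 159 and 476 in BCC and 360 and 806 CPM in healthy mice, and Cfd between 134 and 273, 121 and 354, 106 and 359, and 171 and 1140 CPM in the same groups. The muscle gene Acta1 lay between 250 and 4580 CPM in AFL, 511 and 3990 in vismodegib, 470 and 1560 in BCC and 1440 and 9350 CPM in healthy mice, and Ckm between 61.4 and 1180, 379 and 985, 307 and 778, and 692 and 3610 CPM. The growing hair gene Krt71 lay between 0.884 and 207 CPM in AFL, 8.37 and 7710 in vismodegib, 24.6 and 6380 in BCC and 637 and 12500 CPM in healthy mice, and Tchh between 7.65 and 193, 10.3 and 6300, 23.8 and 4120, and 184 and 15400 CPM.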
